A study of Homo sapiens with 2 samples.

Results

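The genes described here, 10 in all, lie beside ERBB2, the gene of the receptor HER2, on the long arm of human chromosome 17 at band 17q12, and were followed across 6 breast cancer cell lines. MED1, CDK12, STARD3, TCAP, PNMT, PGAP3, MIEN1, GRB7, IKZF3 and ORMDL3 were taken by symbol from the deposited list of features, which holds 36601 genes, and all 10 were found there. MED1, CDK12, STARD3, TCAP and PNMT lie on the centromeric side of ERBB2, PGAP3 lies head to head with it, and MIEN1, GRB7, IKZF3 and ORMDL3 follow on the telomeric side.

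HER2 is a receptor tyrosine kinase of the epidermal growth factor receptor family, and in a subset of breast cancers a stretch of 17q12 is present in many copies. Genes that lie beside ERBB2 are often copied with it, and their transcripts are then often abundant too. BT-474 is a widely used line with such an amplification, but gene copies were not measured here.

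The study profiled the lines by droplet-based 3' single-cell RNA sequencing, to ask which surface markers separate subpopulations of cancer cells. Each line was stained with its own multiplexing oligo and pooled with other lines before capture, 3 lines to each of 2 pools. BT-474, MDA-MB-453 and MDA-MB-231 made up a pool, and HCC38, Hs578T and MDA-MB-436 the other. All are established lines, the labels name no treatment, and each line was cultured and captured 1 time.

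BT-474 is a luminal line, MDA-MB-453 is a luminal line that expresses the androgen receptor, and MDA-MB-231, HCC38, Hs578T and MDA-MB-436 are usually described as triple-negative. The labels do not tie an oligo to a line, so the 6 groups of barcodes were named from marker genes outside 17q12. The group with barcode suffix 1 led 9 of the 10 BT-474 markers, among them the progesterone receptor gene PGR, but also 2 of the 8 MDA-MB-453 markers. It is called BT-474-like. The group with suffix 3 led 4 of the 8 MDA-MB-453 markers, but also the BT-474 marker CA12 and the HCC38 marker SFN, and is called MDA-MB-453-like. The remaining groups led between 4 and 7 markers of their line, and are called MDA-MB-231-like, HCC38-like, Hs578T-like and MDA-MB-436-like. Of these, the Hs578T-like group also led 2 HCC38 markers, KRT14 and KRT17.

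After filtering, 15019 cells remained, with 2239 BT-474-like, 3310 MDA-MB-453-like, 2882 MDA-MB-231-like, 2439 HCC38-like, 1867 Hs578T-like and 2282 MDA-MB-436-like cells. The groups held between 68.9 M and 88.9 M UMIs (unique molecular identifiers, counted molecules), with a median of 28413 UMIs per BT-474-like cell and 20174 per MDA-MB-453-like cell. BT-474-like cells had a median mitochondrial share of 14.6%, against 9.85% in MDA-MB-453-like cells and between 5.85% and 7.44% in the other groups. No barcode was shared within a capture, and 22 barcode sequences occurred in both. With 1 culture a line there was no replicate and no test, so all intervals are 95% intervals that cover counting error only. Differences between lines and between cultures cannot be told apart.

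Promoter windows, from 250 bases before to 50 bases after the start of a transcript, were available for MED1, CDK12, STARD3, PGAP3, MIEN1 and ORMDL3, and for ERBB2. The entries missing were TCAP, PNMT, GRB7 and IKZF3. The windows are RefSeq sequence of GRCh38.p14, printed 5' to 3' on the strand of the gene. The ERBB2 window is shown because it is shared in part with PGAP3, whose RefSeq transcript runs the opposite way from a start 37 bases away. The GENCODE annotation, used for gene positions below, differs and puts the PGAP3 start 8.88 kb from that of ERBB2, inside the ERBB2 gene. Capitals mark the 136 bases, chr17:39688008-39688143, that lie in both windows.
ERBB2, chr17:39687844-39688143, plus strand: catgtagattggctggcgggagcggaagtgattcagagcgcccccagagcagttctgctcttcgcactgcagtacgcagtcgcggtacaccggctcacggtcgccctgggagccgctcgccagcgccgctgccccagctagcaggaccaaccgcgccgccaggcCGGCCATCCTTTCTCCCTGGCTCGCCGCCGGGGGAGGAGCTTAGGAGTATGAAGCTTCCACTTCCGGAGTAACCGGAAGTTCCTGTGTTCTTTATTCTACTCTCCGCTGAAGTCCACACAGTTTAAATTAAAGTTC
The windows of STARD3, MIEN1 and MED1 are shown because the first 2 genes were at least 2-fold higher in MDA-MB-453-like than in MDA-MB-231-like cells and MED1 was not. In them capitals mark matches to the motifs searched.
STARD3, chr17:39636894-39637193, plus strand: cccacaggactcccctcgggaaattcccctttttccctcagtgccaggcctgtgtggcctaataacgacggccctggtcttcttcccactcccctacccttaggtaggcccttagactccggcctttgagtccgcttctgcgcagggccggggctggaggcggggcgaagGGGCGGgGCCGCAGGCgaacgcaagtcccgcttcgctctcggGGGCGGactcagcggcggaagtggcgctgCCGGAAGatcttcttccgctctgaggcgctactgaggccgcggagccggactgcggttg
MIEN1, chr17:39730483-39730782, minus strand: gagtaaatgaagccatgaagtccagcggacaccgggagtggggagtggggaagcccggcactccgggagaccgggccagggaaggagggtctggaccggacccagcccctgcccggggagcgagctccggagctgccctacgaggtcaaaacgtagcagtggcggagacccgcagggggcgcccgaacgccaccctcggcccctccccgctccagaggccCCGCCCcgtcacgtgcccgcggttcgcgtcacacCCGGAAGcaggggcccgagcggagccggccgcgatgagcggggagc
MED1, chr17:39451214-39451513, minus strand: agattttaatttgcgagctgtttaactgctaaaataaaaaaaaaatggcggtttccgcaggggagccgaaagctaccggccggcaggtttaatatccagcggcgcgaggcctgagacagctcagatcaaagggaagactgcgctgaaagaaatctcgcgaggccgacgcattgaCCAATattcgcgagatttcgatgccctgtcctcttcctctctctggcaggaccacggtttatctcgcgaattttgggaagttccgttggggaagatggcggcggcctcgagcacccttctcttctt
5 motifs were searched by their letters on both strands, and no matches of different motifs overlapped in the printed windows. They were the GC box GGGCGG, held by 45.0% of 35116 promoter windows, the CCAAT box CCAAT (34.6%), the TATA box TATAAA (11.5%), an AP-2 motif GCCNNNGGC (23.2%) and an ETS motif CCGGAAG (10.3%). The ETS motif was added after the ERBB2 window had been read. The STARD3 window held 2 GC boxes, 1 AP-2 motif and 1 ETS motif, the MIEN1 window 1 GC box and 1 ETS motif, and the MED1 window 1 CCAAT box. The 136 bases shared by ERBB2 and PGAP3 held 2 ETS motifs on opposite strands. Of the windows not printed in full, that of PGAP3, not past 2-fold in MDA-MB-453-like over MDA-MB-231-like cells, held these 2 and 1 GC box. ORMDL3, which was past 2-fold, had 3 windows with 2, 1 and 1 GC boxes and 0 ETS motifs in each. The first and the third of these windows overlap, and the GC box of the third is also counted in the first. A link of motifs to level was not tested. No window of the 6 genes or of ERBB2 held TATAAA, and the CDK12 window held none of the 5 motifs. These matches are letters in a window and say nothing of binding.

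All 10 genes were highest in BT-474-like cells, and for none of them did the interval there overlap that of the next group. Relative to MDA-MB-453-like cells, the other luminal group and a member of the same capture, all 10 were at least 2-fold higher, where 11.5% of 10934 measured genes and 6.32% of all genes with a UMI were. The call used CPM (a gene's UMIs scaled to the total of its group) with 1 CPM added. A gene was measured where it reached 10 CPM in at least 1 group, which TCAP did not. PNMT, PGAP3 and IKZF3 reached it in BT-474-like cells only. The median log2 ratio of the 10 genes was 2.59, and that of all measured genes was -0.14. Among cells with at most 10% mitochondrial UMIs and at least 5000 UMIs, of which 204 were BT-474-like, all 10 were also past 2-fold, with a median of 2.66. Relative to the mean of the other 5 groups all 10 were again at least 2-fold higher, where 7.43% of measured genes were, with a median log2 ratio of 3.52 beside -0.42 for all measured genes. Relative to MDA-MB-231-like cells, the third group of the capture, all 10 were at least 2-fold higher where 14.8% of measured genes were, with a median log2 ratio of 3.63 beside -0.18. These comparisons share the BT-474-like cells.

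**Figure D1:**
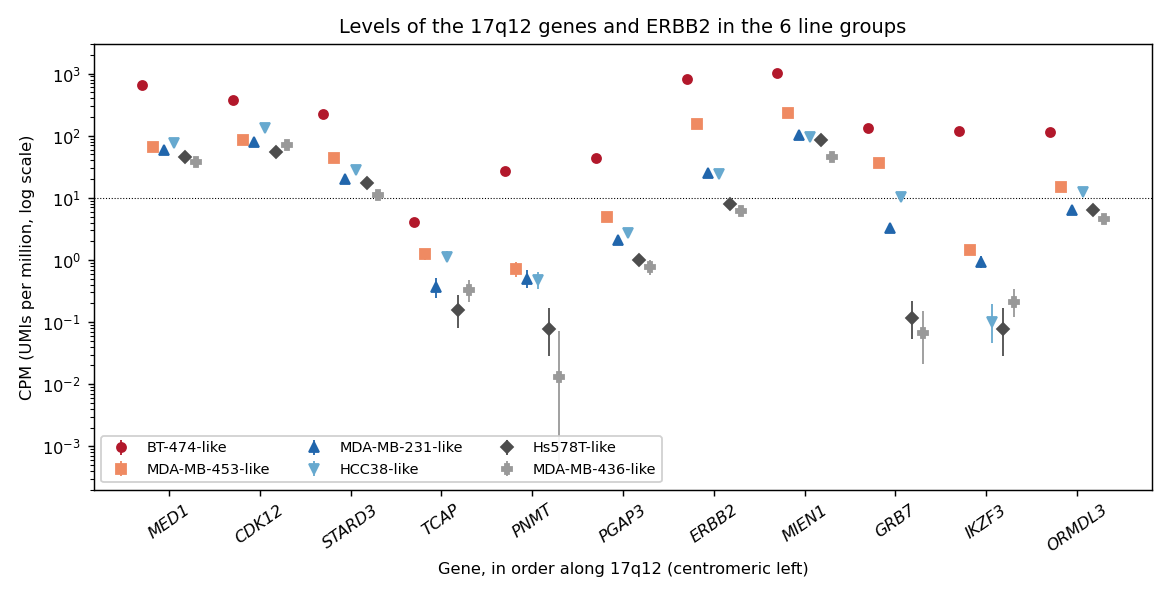
Level of the 10 genes and ERBB2 in the 6 groups, in CPM on a log scale, with the genes in chromosomal order and bars for the exact Poisson 95% interval; the dotted line is at 10 CPM. BT-474-like points, between 4.11 CPM for TCAP and 1019 CPM for MIEN1, lie above all other points of the same gene, and the MDA-MB-453-like point is next for 8 of the 10 genes.

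MED1 encodes a subunit of Mediator, the complex that links transcription factors such as the oestrogen receptor to RNA polymerase II. MED1 (chr17:39404285-39451286, minus strand) was at 644 CPM in BT-474-like and 66.5 CPM in MDA-MB-453-like cells. In the other groups it was at 76.6 CPM in HCC38-like, 59.9 CPM in MDA-MB-231-like, 44.9 CPM in Hs578T-like and 38.3 CPM in MDA-MB-436-like cells. The ratio of BT-474-like to MDA-MB-453-like cells was 9.69 (9.41 to 9.98). The BT-474-like group stood apart, and the other 5 groups lay close to each other, with HCC38-like second.

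CDK12 encodes a cyclin-dependent kinase that phosphorylates RNA polymerase II and is needed for expression of long DNA repair genes. CDK12 (chr17:39461511-39564907, plus strand) was at 373 CPM in BT-474-like and 84.1 CPM in MDA-MB-453-like cells. In the other groups it was at 134 CPM in HCC38-like, 78.4 CPM in MDA-MB-231-like, 69.9 CPM in MDA-MB-436-like and 54.7 CPM in Hs578T-like cells. The BT-474-like level was 4.43 times that of MDA-MB-453-like cells (4.31 to 4.56) and 2.78 times that of HCC38-like cells (2.72 to 2.84), the smallest lead over the next group among the 9 measured genes. For MED1 and CDK12, unlike the other 8 genes, the second-highest group was HCC38-like, and no neighbours in either order had overlapping intervals.

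STARD3 encodes a sterol-binding protein of late endosomes that helps to move cholesterol between membranes. STARD3 (chr17:39637065-39663484, plus strand) was at 223 CPM in BT-474-like and 44.4 CPM in MDA-MB-453-like cells, a ratio of 5.02 (4.83 to 5.21). The other groups had 27.8 CPM in HCC38-like, 20.3 CPM in MDA-MB-231-like, 17.1 CPM in Hs578T-like and 11.1 CPM in MDA-MB-436-like cells. All 6 groups were separated by more than counting error, with both luminal groups on top.

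ORMDL3 encodes an inhibitor of serine palmitoyltransferase, the first enzyme of sphingolipid synthesis. ORMDL3 (chr17:39921041-39927601, minus strand) was at 116 CPM in BT-474-like and 14.8 CPM in MDA-MB-453-like cells, a ratio of 7.83 (7.34 to 8.35). HCC38-like cells followed at 12.2 CPM, MDA-MB-231-like cells at 6.47 CPM, Hs578T-like cells at 6.45 CPM and MDA-MB-436-like cells at 4.61 CPM. The intervals of the MDA-MB-231-like and Hs578T-like groups overlapped, and the other neighbours in this order were separate.

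PGAP3 encodes an enzyme that remodels the lipid of glycosylphosphatidylinositol anchors in the Golgi apparatus. PGAP3 (chr17:39671122-39696797, minus strand) was at 43.5 CPM in BT-474-like and 4.90 CPM in MDA-MB-453-like cells, a ratio of 8.88 (7.95 to 9.95). It was at 2.67 CPM in HCC38-like, 2.09 CPM in MDA-MB-231-like, 1.01 CPM in Hs578T-like and 0.759 CPM in MDA-MB-436-like cells. The luminal groups were first and second, while the intervals of HCC38-like and MDA-MB-231-like cells overlapped, as did those of Hs578T-like and MDA-MB-436-like cells. Its neighbour ERBB2 (chr17:39687914-39730426, plus strand) was at 810.0 CPM in BT-474-like and 153 CPM in MDA-MB-453-like cells, a ratio of 5.30 (5.19 to 5.41). The annotated genes of PGAP3 and ERBB2 overlap on opposite strands, and most of MIEN1 lies within the end of ERBB2, also on the opposite strand. Whether counting used the strand is not given in the sources used here, so reads from the overlapping parts cannot be told apart.

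MIEN1 encodes a small membrane-anchored protein linked to cell migration, and GRB7 encodes an adaptor that binds phosphorylated receptors, HER2 among them. MIEN1 (chr17:39728496-39730787, minus strand) was at 1019 CPM in BT-474-like and 229.9 CPM in MDA-MB-453-like cells, a ratio of 4.43 (4.36 to 4.51). MDA-MB-231-like cells had 101 CPM, HCC38-like cells 96.9 CPM, Hs578T-like cells 84.4 CPM and MDA-MB-436-like cells 45.8 CPM. The luminal groups were first and second by a wide margin, and the intervals of MDA-MB-231-like and HCC38-like cells overlapped. GRB7 (chr17:39737927-39747291, plus strand) was at 134 CPM in BT-474-like and 37.0 CPM in MDA-MB-453-like cells, a ratio of 3.61 (3.46 to 3.77). HCC38-like cells had 10.2 CPM and MDA-MB-231-like cells 3.22 CPM, while Hs578T-like and MDA-MB-436-like cells had 0.117 and 0.0655 CPM, from 9 and 5 UMIs. GRB7 was thus near the limit of detection in the last 2 groups, whose intervals overlapped.

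IKZF3 encodes Aiolos, a zinc finger transcription factor of lymphocytes. IKZF3 (chr17:39757715-39864188, minus strand) was at 121 CPM in BT-474-like and 1.45 CPM in MDA-MB-453-like cells, a ratio of 83.1 (68.6 to 102). The annotated genes KRT8P34 and AC090844.1 overlap IKZF3 on the same strand, and whether their reads entered its count was not tested. IKZF3 was at 0.924 CPM in MDA-MB-231-like, 0.209 CPM in MDA-MB-436-like, 0.101 CPM in HCC38-like and 0.0777 CPM in Hs578T-like cells. With 1 CPM added it was 49.7-fold above the next group and ranked 5 among all measured genes by this lead. IKZF3 was measured only through its level in BT-474-like cells, which also sets the lead, so the rank is no independent result. Of 10 lymphoid markers such as PTPRC, CD3E and MS4A1, 9 were at 0 in BT-474-like cells, and their summed level was 0.348 CPM there, all from CD79A. In the other 5 groups the summed lymphoid level lay between 0.0415 CPM in MDA-MB-453-like and 5.78 CPM in HCC38-like cells.

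PNMT encodes the enzyme that turns noradrenaline into adrenaline, known from the adrenal medulla. PNMT (chr17:39667981-39670475, plus strand) was at 26.6 CPM in BT-474-like and 0.706 CPM in MDA-MB-453-like cells, a ratio of 37.7 (28.6 to 50.9). MDA-MB-231-like cells had 0.499 CPM, HCC38-like cells 0.472 CPM, Hs578T-like cells 0.0777 CPM and MDA-MB-436-like cells 0.0131 CPM, from 1 UMI. In this order the intervals of MDA-MB-453-like and MDA-MB-231-like cells overlapped, as did those of MDA-MB-231-like and HCC38-like cells and those of Hs578T-like and MDA-MB-436-like cells. HCC38-like and Hs578T-like cells were separate. Among markers of chromaffin cells, which make adrenaline, DBH and SLC18A1 were at 0 in BT-474-like cells, while SYP was at 1.38 CPM, CHGA at 0.334 CPM, DDC at 0.247 CPM, SLC18A2 at 0.0435 CPM and CHGB at 0.0145 CPM. SYP was at 1.07 CPM or more in each of the other groups, and CHGA was at most 0.112 CPM there. TH was at 1.06 CPM in BT-474-like cells, against 0.0138 CPM in MDA-MB-453-like and 1.06 CPM in MDA-MB-231-like cells.

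TCAP encodes telethonin, a protein of the muscle sarcomere. TCAP (chr17:39664187-39666555, plus strand) was at 4.11 CPM in BT-474-like and 1.23 CPM in MDA-MB-453-like cells, a ratio of 3.33 (2.62 to 4.28). HCC38-like cells had 1.14 CPM, MDA-MB-231-like cells 0.365 CPM, MDA-MB-436-like cells 0.327 CPM and Hs578T-like cells 0.155 CPM. BT-474-like cells were highest, MDA-MB-453-like and HCC38-like cells overlapped, and no group reached 10 CPM. Of 10 striated muscle markers, 4 (MYH7, MYH2, ACTC1 and CKM) were at 0 in BT-474-like cells, and the summed level was 0.769 CPM there, against 0.377 to 13.4 CPM in the other groups. Adding 5 CPM in place of 1 CPM took TCAP below 2-fold, to a log2 ratio of 0.55 of BT-474-like over MDA-MB-453-like cells.

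Genes that mark BT-474-like cells were also counted at a low level in the groups captured with them. Of 6 BT-474 markers, MDA-MB-453-like cells held between 0.783% and 2.12% of the BT-474-like level and MDA-MB-231-like cells between 0.522% and 1.59%. These 6 were chosen after their values were seen. TFF1, a marker outside the 6, was at 1044 CPM in BT-474-like, 81.6 CPM in MDA-MB-453-like and 11.2 CPM in MDA-MB-231-like cells. In the other capture the highest group held 8.86% for GREB1, 7.77% for PSCA and 0.531% for ESR1. It held at most 0.0797% for PGR, BCAS1 and CEACAM6. IKZF3 stood at 1.20% in MDA-MB-453-like and 0.765% in MDA-MB-231-like cells, within the ranges of the 6 markers. PNMT stood at 2.65% and 1.87%, just above them. Whether these counts are carried-over RNA or expression was not tested, and no expression is read from either gene there. The other 8 genes stood at 10.3% to 30.0% of the BT-474-like level in MDA-MB-453-like cells, above the range of the 6 markers. In MDA-MB-231-like cells the same 8 stood at 2.41% (GRB7) to 21.0% (CDK12).

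MDA-MB-453-like cells differed from MDA-MB-231-like cells in fewer of the genes. STARD3, MIEN1, GRB7 and ORMDL3 were at least 2-fold higher in MDA-MB-453-like cells, 4 of 10, where 17.8% of measured genes were, and none passed 2-fold downwards, where 19.7% of measured genes did. GRB7 differed most, at 37.0 CPM in MDA-MB-453-like and 3.22 CPM in MDA-MB-231-like cells, a ratio of 11.5 (10.1 to 13.1), next to ERBB2 with a ratio of 5.99 (5.72 to 6.28). STARD3, MIEN1 and ORMDL3 had ratios of 2.19 (2.06 to 2.33), 2.28 (2.22 to 2.34) and 2.29 (2.06 to 2.55), close to the limit of 2-fold. The ratio was 1.11 (1.07 to 1.16) for MED1 and 1.07 (1.04 to 1.11) for CDK12, the pair farthest on the centromeric side. The median log2 ratio of the 10 genes was 0.82 beside 0.00 for all measured genes. Without removal of doublets and mixed cells, or with every deposited barcode, 2 genes passed 2-fold, MIEN1 and GRB7.

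A list of 44 genes from the flanks of the 10 or from between them was set beside them, and 33 of the 44 were measured. In BT-474-like over MDA-MB-453-like cells 27 of the 33 passed 2-fold upwards, where 11.5% of all measured genes did, and 0 passed it downwards, where 16.3% did. Their median log2 ratio was 2.38. SRCIN1, STAC2 and GSDMB entered the 33 only through their level in BT-474-like cells. The listed genes that were not measured are left out of these counts. Among them CACNB1 and RAPGEFL1 passed 2-fold upwards, at log2 ratios of 2.01 and 1.77, and the others passed it in neither direction. On the centromeric side 19 of 20 measured genes were at least 2-fold higher, the exception being ARHGAP23. They ran from ACACA, whose start lies at -2281 kb from that of ERBB2, over TADA2A, DUSP14, SYNRG, DDX52, MRPL45, SOCS7, SRCIN1, MLLT6, CISD3, PCGF2, PSMB3, PIP4K2B, CWC25, RPL23, LASP1, RPL19 and STAC2 to FBXL20 at -285 kb. ACACA, the farthest gene listed on this side, had a log2 ratio of 2.24, so the list holds no end of the difference there. The 4 nearest measured genes there, FBXL20, STAC2, RPL19 and LASP1, had log2 ratios of 3.77, 3.96, 3.85 and 3.06, and all but LASP1 lay above MED1, at 3.26. Ribosomal protein gene RPL19 was at 27127 CPM in BT-474-like and 1879.9 CPM in MDA-MB-453-like cells, and RPL23 at 13474 CPM in BT-474-like and 1138 CPM in MDA-MB-453-like cells. Both have many near-identical pseudogenes that could share their reads, so their levels are uncertain.

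On the telomeric side GSDMB, between IKZF3 and ORMDL3, was at 11.0 CPM in BT-474-like and 1.65 CPM in MDA-MB-453-like cells. PSMD3, MED24 and THRA followed with log2 ratios of 2.25, 2.21 and 4.01, THRA being the gene of the thyroid hormone receptor alpha, which overlaps MED24 and NR1D1 on the opposite strand. NR1D1 (413 kb) and MSL1 (434 kb) had log2 ratios of 0.10 and 0.18. Beyond MED24, 4 of 9 measured genes (CASC3, WIPF2, RARA and IGFBP4) were at least 2-fold higher in BT-474-like than in MDA-MB-453-like cells. RARA (621 kb) had a log2 ratio of 2.52 and IGFBP4 (756 kb) 2.65. CDC6, at -0.26, had the lowest log2 ratio of the list. Over MDA-MB-231-like cells 1 of these 9 was at least 2-fold higher and 4 were lower, with a median log2 ratio of 0.035. IGFBP4 was at 53.2 CPM in BT-474-like, 7.61 CPM in MDA-MB-453-like and 451 CPM in MDA-MB-231-like cells. The split at MED24 was placed after the ratios had been seen, and no edge of the difference is read from it. Relative to MDA-MB-231-like cells 24 of the 33 passed 2-fold upwards in BT-474-like cells, where 14.8% of all measured genes did, and 5 passed it downwards, where 23.5% did. In MDA-MB-453-like over MDA-MB-231-like cells 3 of the 33 were higher, where 17.8% of all measured genes were, and 8 were lower, where 19.7% were. Their median log2 ratio was -0.47.

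**Figure D2:**
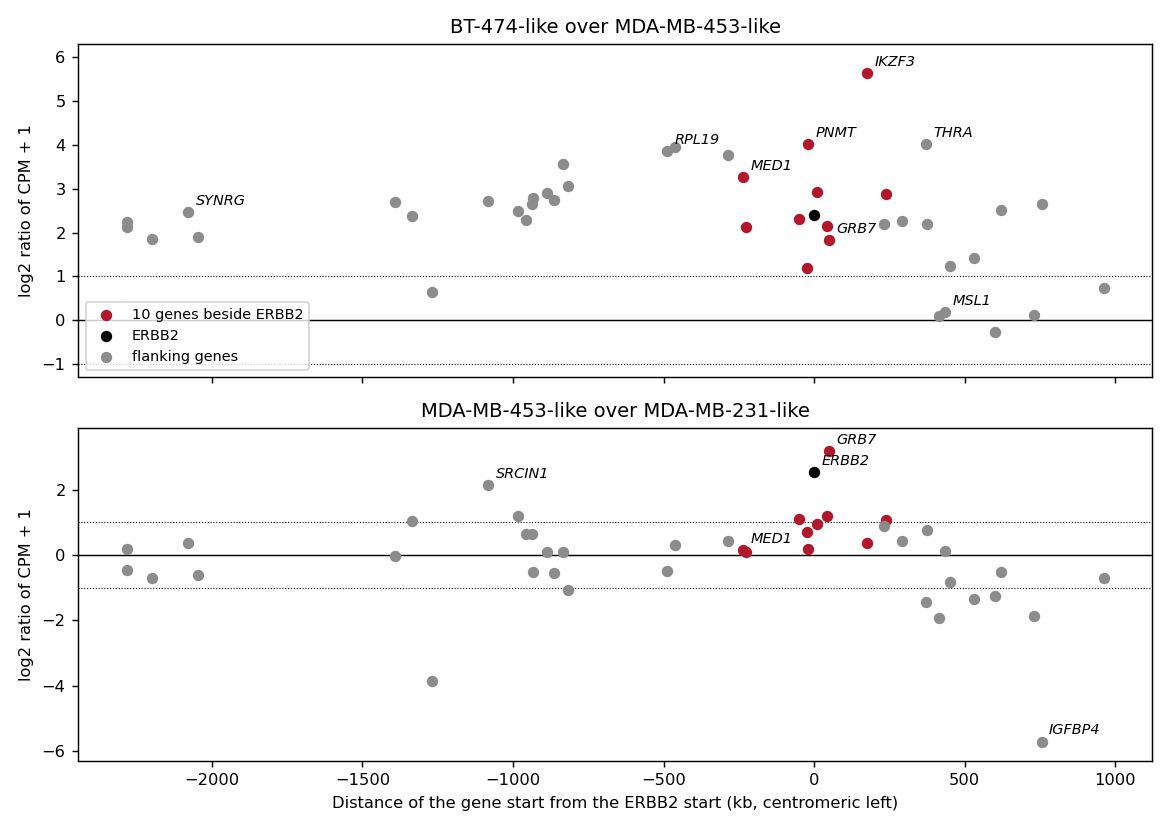
Log2 ratio of CPM with 1 CPM added against the distance of each gene's start from the start of ERBB2 in kb, for BT-474-like over MDA-MB-453-like (top) and MDA-MB-453-like over MDA-MB-231-like cells (bottom), with dotted lines at 2-fold. At the top the 10 genes and 19 of 20 measured centromeric genes lie above the 2-fold line, while at the bottom GRB7 (3.17) and ERBB2 (2.54) stand highest.

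Genes elsewhere in the genome that are paralogs or partners of the 10 were counted in the same way. Of 47 such genes in the features 41 were measured. Most of the 41 were other subunits of Mediator, the complex of MED1, and none were listed for TCAP, PNMT or MIEN1. In BT-474-like relative to MDA-MB-453-like cells 3 of the 41 passed 2-fold upwards, where 11.5% of all measured genes did, and 2 passed it downwards, where 16.3% did. Their median log2 ratio was -0.26, beside -0.14 for all measured genes. GRB10, a paralog of GRB7, was at 23.1 CPM in BT-474-like and 3.20 CPM in MDA-MB-453-like cells, a log2 ratio of 2.52, and MED10, another Mediator subunit, had a log2 ratio of 1.22. IKZF5, a paralog of IKZF3, and SPTLC2, a subunit of the enzyme that ORMDL3 inhibits, had log2 ratios of -1.24 and -1.07. CDK13, the closest paralog of CDK12, was at 72.0 CPM in BT-474-like and 49.7 CPM in MDA-MB-453-like cells, and CCNK, the gene of the cyclin partner of CDK12, was at 47.8 CPM in BT-474-like and 57.5 CPM in MDA-MB-453-like cells.

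Single cells were compared after every cell had been thinned to 10000 UMIs, which left 2226 BT-474-like cells and a total of 3280 MDA-MB-453-like cells. MIEN1 had a UMI in 99.9% of BT-474-like cells, MED1 in 99.3%, CDK12 in 95.3% and STARD3 in 86.6%. In MDA-MB-453-like cells the shares were 88.5% for MIEN1, 46.3% for MED1, 56.2% for CDK12 and 34.9% for STARD3. All 4 were thus found in most BT-474-like cells. GRB7 was found in 68.8% of BT-474-like cells (66.9 to 70.7) against 30.0% of MDA-MB-453-like cells (28.4 to 31.6), and ORMDL3 in 67.4% (65.4 to 69.3) against 14.3% (13.1 to 15.5). GRB7 had no UMI in the 1841 thinned Hs578T-like cells, while 0.482% of the cells of that group had a GRB7 UMI without thinning.

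IKZF3 had a UMI in 68.2% of BT-474-like cells (66.2 to 70.1) and 1.49% of MDA-MB-453-like cells (1.11 to 1.97). The share was 1.12% in MDA-MB-231-like cells and at most 0.183% in the groups of the other capture. Whether the IKZF3 counts of the MDA-MB-453-like and MDA-MB-231-like groups are carried-over RNA was not tested. PGAP3 was found in 35.6% of BT-474-like against 5.09% of MDA-MB-453-like cells, PNMT in 20.6% against 0.762%, and TCAP in 4.45% against 1.43%. PNMT had no UMI in the 2190 thinned MDA-MB-436-like cells, against 0.0438% of that group without thinning. Without thinning the shares in BT-474-like cells were 93.0% for IKZF3, 43.8% for PNMT and 11.6% for TCAP.

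Summed over the 10 genes, BT-474-like cells held a median of 26 UMIs per 10000, with 8 in the lowest cell and 66 in the highest. MDA-MB-453-like cells held a median of 5, with 0 in the lowest and 22 in the highest cell. The median was 3 in MDA-MB-231-like, 3 in HCC38-like, 2 in Hs578T-like and 1 in MDA-MB-436-like cells, and the highest cells of these groups had 10, 20, 9 and 7 UMIs. No BT-474-like cell was at 0, and 2 of 2226 (0.0898%, 0.0109 to 0.324) were at or below 9 UMIs, the 95th percentile of MDA-MB-453-like cells. The groups overlapped at their tails. A total of 648 BT-474-like cells (29.1%) were at or below the highest MDA-MB-453-like cell, but only 1 cell had those 22 UMIs. The next highest MDA-MB-453-like cells had 14 UMIs. The HCC38-like maximum of 20 was also that of 1 cell, with the next highest at 12.

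**Figure D3:**
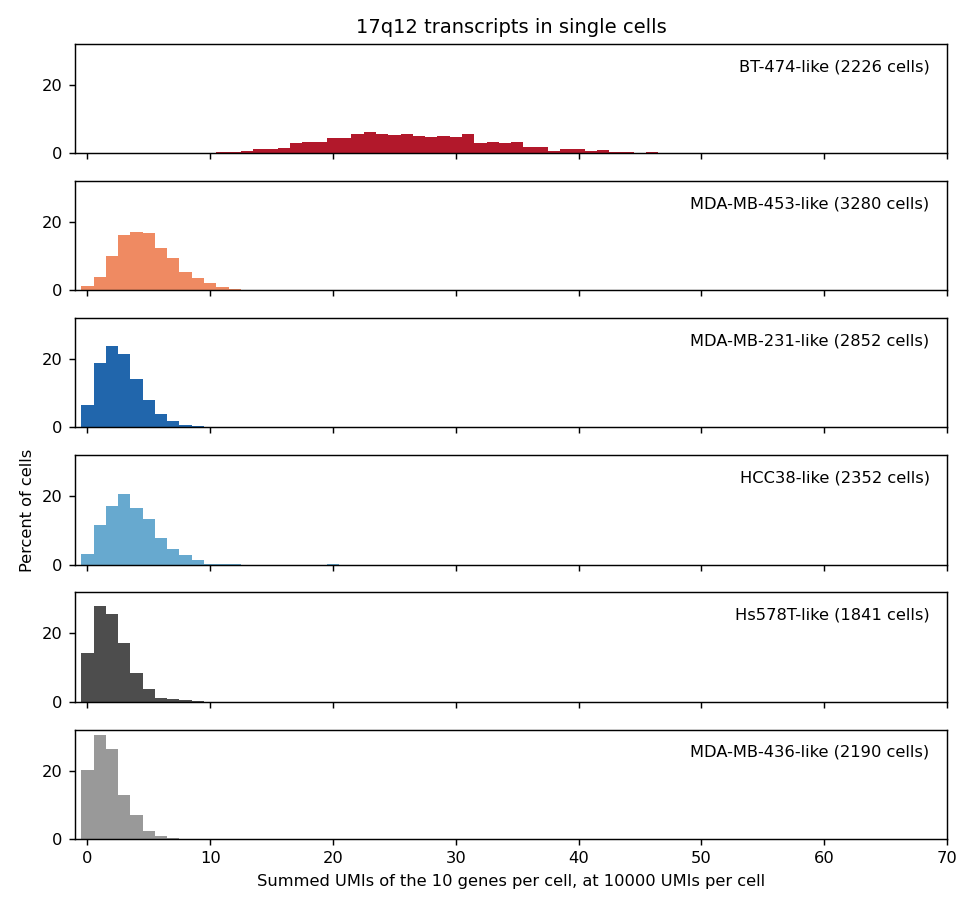
Percent of cells of each group (vertical axes, to a common scale) by the summed UMIs of the 10 genes at 10000 UMIs per cell. The BT-474-like distribution has its median at 26 and its 5th percentile at 16, to the right of the 95th percentile of all other groups, the highest of which is 9 in MDA-MB-453-like cells.

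How the 10 genes varied together from cell to cell is given as a description. Over 2226 BT-474-like cells the Pearson correlation of ln(1 + UMIs) at 10000 UMIs had a median of 0.019 over the 45 pairs, from -0.071 for CDK12 and MIEN1 to 0.155 for MED1 and CDK12, and 32 pairs were above 0. On residuals of unthinned counts the median was 0.048, and MED1 and CDK12 had 0.345. At 10000 UMIs all pairs of the 7488 genes found in at least 10% of these cells had a median of 0.0016, a 5th percentile of -0.039 and a 95th percentile of 0.043. Of the 36 pairs among the 9 of the 10 genes found that often, 14 lay above that percentile. In MDA-MB-453-like cells the median of the 45 pairs was -0.00042, at lower counts. These cells share a library, and counts this sparse keep correlations low, so the values are not read as the presence or the absence of shared variation.

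After MED1 and CDK12 the highest pairs were MED1 and IKZF3 at 0.113 and CDK12 and IKZF3 at 0.097. STARD3 and GRB7, which lie on either side of ERBB2, had 0.085. With ERBB2 itself the median correlation was 0.049, ORMDL3 being highest at 0.099 and CDK12 next at 0.084. MIEN1 had the lowest correlation with the sum of the other 9 genes, at -0.048. STARD3 had the highest, at 0.107, followed by IKZF3 at 0.095 and MED1 at 0.092. The summed UMIs had a correlation of -0.085 with the mitochondrial share and 0.133 with the log of the depth before thinning. With both held constant the median over pairs was 0.020.

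**Figure D4:**
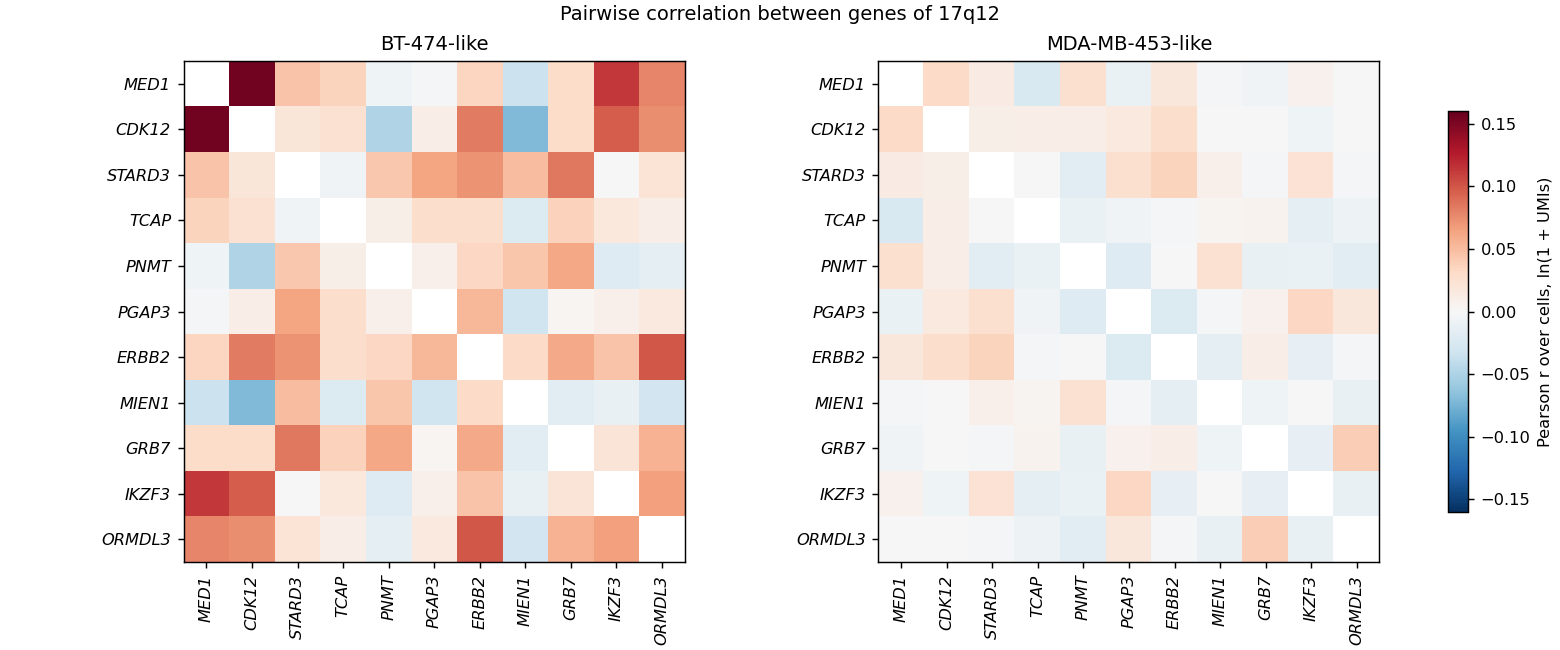
Pearson correlation over cells of ln(1 + UMIs) at 10000 UMIs for each pair of the 10 genes and ERBB2, in BT-474-like (left) and MDA-MB-453-like cells (right), in chromosomal order on both axes with the diagonal left blank. The darkest square is MED1 and CDK12 at 0.155 on the left, and CDK12 and MIEN1 at -0.071 is the lowest.

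The genes outside the 10 whose UMIs followed their sum most closely over the BT-474-like cells were RAB22A at 0.192, NCOA3 at 0.144, CLTC at 0.135, TRIM37 at 0.134 and TOP2A at 0.133. RAB22A and NCOA3 lie on chromosome 20, and CLTC and TRIM37 on chromosome 17 at 19932 kb and 19419 kb telomeric of ERBB2. TOP2A is a gene of the flank list, with a log2 ratio of 0.12 in BT-474-like over MDA-MB-453-like cells. Ranks 6 to 10 were AURKA at 0.133, TOB1 at 0.132, HMMR at 0.131, CCNA2 at 0.130 and CALCOCO2 at 0.129. AURKA, HMMR and CCNA2 are, like TOP2A, genes of dividing cells, and the part of the cell cycle in these values was not tested. The 95th percentile over 7479 genes was 0.068, and 9 of 31 flank genes found in at least 10% of the cells lay above it. ERBB2 had 0.123.

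MIEN1 counts had a variance of 2.16 times their mean over BT-474-like cells, at 10.0 UMIs per cell, against 1.21 times over MDA-MB-453-like cells, at 2.32 UMIs per cell. CDK12 had 1.55 in BT-474-like and 1.01 in MDA-MB-453-like cells, and MED1 had 1.45 in BT-474-like and 1.06 in MDA-MB-453-like cells. Counting alone gives a value of 1. The ratio was 1.02 for PGAP3, 1.03 for TCAP and 1.06 for IKZF3 in BT-474-like cells, and 1.47 for PNMT, at 0.274 UMIs per cell. The median over the 10 genes was 1.24. The ratio also depends on the level of a gene, so no order of the genes is read from these values.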

How the data were processed

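The deposited values are raw UMI counts per gene and barcode in 1 matrix that the authors made with Cell Ranger 6.1.2, per the file headers. The submitters' processing notes name GRCh38 (hg38) as the build. How strand, cell calling, oligo assignment and aggregation were set is not given in the sources used here. Both deposited samples, gene expression and oligos, are read from that matrix of 36601 genes, 12 oligos and 17605 barcodes. Each barcode suffix had 1 oligo on top in every barcode, and oligo counts split the suffixes into 2 captures.

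The cell filter asked for 1000 UMIs, 500 genes and no more than 20% of UMIs from mitochondria, which 15538 barcodes met, and 519 were removed as doublets (252 called by Scrublet in scanpy 1.11.5, expected rate 0.06) or as cells with transcripts of another line (50 specific genes of at least 50 CPM at 25% of that line's own median). The 10 genes, ERBB2 and the 44 listed flank genes were left out of both steps and of the line markers. Other genes of 17q12 were not left out of the doublet and mixed-cell steps. A name needed the highest level, of 10 CPM or more, for at least 3 markers of a line of the group's pool. The MDA-MB-436-like group has MMP1 among its 10 leading genes.

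Counts were summed per group and given as CPM. Intervals are exact Poisson (CPM), Clopper-Pearson (shares) and conditional binomial (ratios), at 95%, and UMIs of 1 library are not replicates. A count of 0 allows up to 3. Log2 ratios used a pseudocount of 1 CPM. Positions are from GENCODE release 29 on GRCh38, which may not be the annotation counted. Motifs were searched in RefSeq promoter windows. All 10 genes, ERBB2, the nearest and extreme flank genes and the extremes of other lists are named. The list of chromaffin markers is not reported in full here. The 6 markers compared within the capture of BT-474-like cells were chosen after their values were seen. The genes and lists were chosen with earlier results of these data known. Ratios and thinning were tested on simulated data. Versions were 4.0.16 for edgeR (TMM factors only), 2.3.3 for pandas, 1.17.1 for scipy, 2.4.6 for numpy and 3.11.15 for Python.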

Additional observations from a re-analysis of the deposited data

How the results depend on the processing

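All 10 genes were at least 2-fold higher in BT-474-like cells over each of the 3 comparators in every setting tried, except that with 5 CPM added TCAP was not, which left 9. The median log2 ratio over MDA-MB-453-like cells (2.59) was 2.49 with every deposited barcode, 2.72 with TMM, 2.73 with median-of-ratios scaling and 2.25 with 5 CPM added. Over the mean of the other 5 groups (3.52) it was 3.42 with every barcode, 3.56 with a stricter cell filter (5000 UMIs, 10% mitochondrial), 3.45 with no doublets or mixed cells removed, 3.70 with TMM, 3.70 with median-of-ratios, 3.59 with 0.1 CPM and 3.04 with 5 CPM added. Over MDA-MB-231-like cells (3.63) it was 3.44 with every barcode, 3.45 with no doublets removed, 3.80 with 0.1 CPM and 3.22 with 5 CPM added. For MDA-MB-453-like over MDA-MB-231-like cells the count of genes past 2-fold (4) was 2 with every barcode, 2 with no doublets removed and 2 with 5 CPM added, where the median log2 ratio (0.82) was 0.35. For IKZF3 the log2 ratio over MDA-MB-453-like cells lay between 4.29 and 6.28 over the settings. The cause was not tested.

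TMM and median-of-ratios scaling raised the median log2 ratio of all measured genes of BT-474-like over MDA-MB-453-like cells by 0.12 and 0.12, and over the mean of the other 5 groups by 0.18 and 0.17. With 5000 UMIs per cell the median share of cells with a UMI over the 10 genes was 44.8% in BT-474-like and 11.1% in MDA-MB-453-like cells, without thinning it was 93.5% in BT-474-like and 38.9% in MDA-MB-453-like cells, and at 10000 UMIs 68.5% in BT-474-like and 22.1% in MDA-MB-453-like cells. At 5000 UMIs 2.15% of BT-474-like cells lay at or below the 95th percentile of MDA-MB-453-like cells, and the median variance over mean (1.24) was 1.13. The median pair correlation was 0.048 on residuals of unthinned counts, with MED1 and CDK12 at 0.345. The stricter cell filter left 204 BT-474-like cells, and all 10 genes stayed 2-fold higher, with a median log2 ratio of 2.66 over MDA-MB-453-like cells. No paired analysis was possible because each line was 1 culture, and no replicate could be left out. Outside BT-474-like cells TCAP rested on 12 to 101 UMIs per group and PNMT on 1 to 51.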

Other observations

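Apart from the genes beside ERBB2, the genes of at least 50 CPM in BT-474-like cells with the largest lead over the next group were TCN1, which encodes a vitamin B12-binding protein, PGR, the progesterone receptor gene, SCGB2A2, which encodes mammaglobin A, BCAS1 and FAM3B. TCN1 was at 1672 CPM in BT-474-like and 11.5 CPM in MDA-MB-453-like cells, and PGR at 171 CPM in BT-474-like and 1.34 CPM in MDA-MB-453-like cells. With 1 CPM added the leads were 133-fold for TCN1, 73.6-fold for PGR, 67.7-fold for SCGB2A2, 51.1-fold for BCAS1 and 38.1-fold for FAM3B, beside 49.7-fold for IKZF3. PGR and BCAS1 were among the markers that named the group, so their lead is no independent result.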
